A study of Mus musculus with 12 samples.

Results

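The collagen genes of the mouse hippocampus were examined across genotype and treatment. A gene was counted as a collagen gene when its symbol consisted of Col, a type number, the letter a and a chain number and when the annotation called it protein-coding. This rule gave 44 genes among the 55421 genes listed, of which 43 had a total above 20 counts and were tested. The exception was *Col10a1*, a short-chain collagen of growth plate cartilage, with 19 counts. Of the 43 genes, 11 encode fibrillar collagens, 6 encode the type IV collagens of basement membranes and 26 encode collagens of other types. The study asked whether a brief treatment with Nutlin-3, a small molecule that blocks the p53 regulator MDM2, has lasting effects in *Fmr1* KO mice, a model of fragile X syndrome that lacks the RNA-binding protein FMRP.

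RNA was taken from the hippocampus of single mice and selected for poly(A), with 3 mice in each of 4 groups. WT-Veh mice were wild type and vehicle-injected, WT-Nut3 mice were wild type and Nutlin-3-injected, KO-Veh mice were *Fmr1* KO and vehicle-injected, and KO-Nut3 mice were *Fmr1* KO and Nutlin-3-injected. According to the labels and the methods, all mice received 5 intraperitoneal injections at 2 months of age, with a dose of 10 mg/kg in the Nutlin-3 groups, and tissue was taken at 6 months. The vehicle groups thus share the injections with the treated groups. The *Fmr1* deletion is constitutive, so it is present in every cell type and throughout development, and other mice of the study carried a Nestin-GFP transgene, whose presence in these 12 mice the labels do not give. Libraries are named by group and by the RH number in their titles (RH1 to RH16), which is taken here as the animal number. The libraries held 17150820 to 20040482 reads counted on genes, and 10142 to 15880 of these lay on collagen genes.

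*Fmr1*, the targeted gene, was measured at 79.5, 75.3 and 77.7 CPM (reads scaled to a common library size) in WT-Veh RH2, RH5 and RH15 and at 32.7, 32.5 and 37.3 CPM in KO-Veh RH7, RH10 and RH16. The levels were 75.2, 74.0 and 78.3 CPM in WT-Nut3 RH1, RH9 and RH14, and 30.6, 28.5 and 35.7 CPM in KO-Nut3 RH6, RH8 and RH13. Every KO library lay below every WT library, in accordance with its label, and transcripts of the locus remained detectable in all 6 KO libraries.

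Collagens are trimers of alpha chains that wind around each other in a triple helix, and each gene encodes a single chain. Fibrillar collagens form banded fibers, type IV collagens form the sheet of every basement membrane, and further types sit on fibers, link cells to the matrix, span the plasma membrane or build hexagonal nets. In brain, most basement membrane surrounds blood vessels and the pial surface, fibrillar collagens are largely made by fibroblasts of meninges and vessels, and the choroid plexus rests on a basement membrane of its own.

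Levels of different genes were compared per kilobase (kb) of exon, as the mean of all 12 libraries. Among basement membrane genes, *Col4a2* was highest with 13.4 CPM per kb, followed by *Col4a1* with 9.97 CPM per kb, the 2 chains of the ubiquitous type IV network, and by *Col4a5* with 1.18 CPM per kb. Among fibrillar genes, *Col11a2* led with 6.21 CPM per kb, ahead of *Col5a1* with 2.65 and *Col1a1* with 1.42 CPM per kb. Among the other types, *Col6a1* of the beaded filaments had 10.97 CPM per kb, *Col9a3* of the fibril-associated collagens 7.96, and *Col25a1*, a transmembrane collagen of neurons, 7.35 CPM per kb. The lowest level of a tested collagen gene was that of *Col6a6*, with 0.0895 CPM per kb. Per kb of coding sequence, *Col25a1* moved to the first place with 47.6 CPM per kb. By that measure *Col11a2* and *Col5a1* still led the fibrillar genes. *Col1a2* with 3.57, *Col11a1* with 3.19 and *Col5a2* with 2.80 CPM per kb then lay above *Col1a1* with 2.13. Basement membrane genes held 26.7% of all collagen CPM, fibrillar genes 21.3% and the other types 52.1%.

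**Figure D1:**
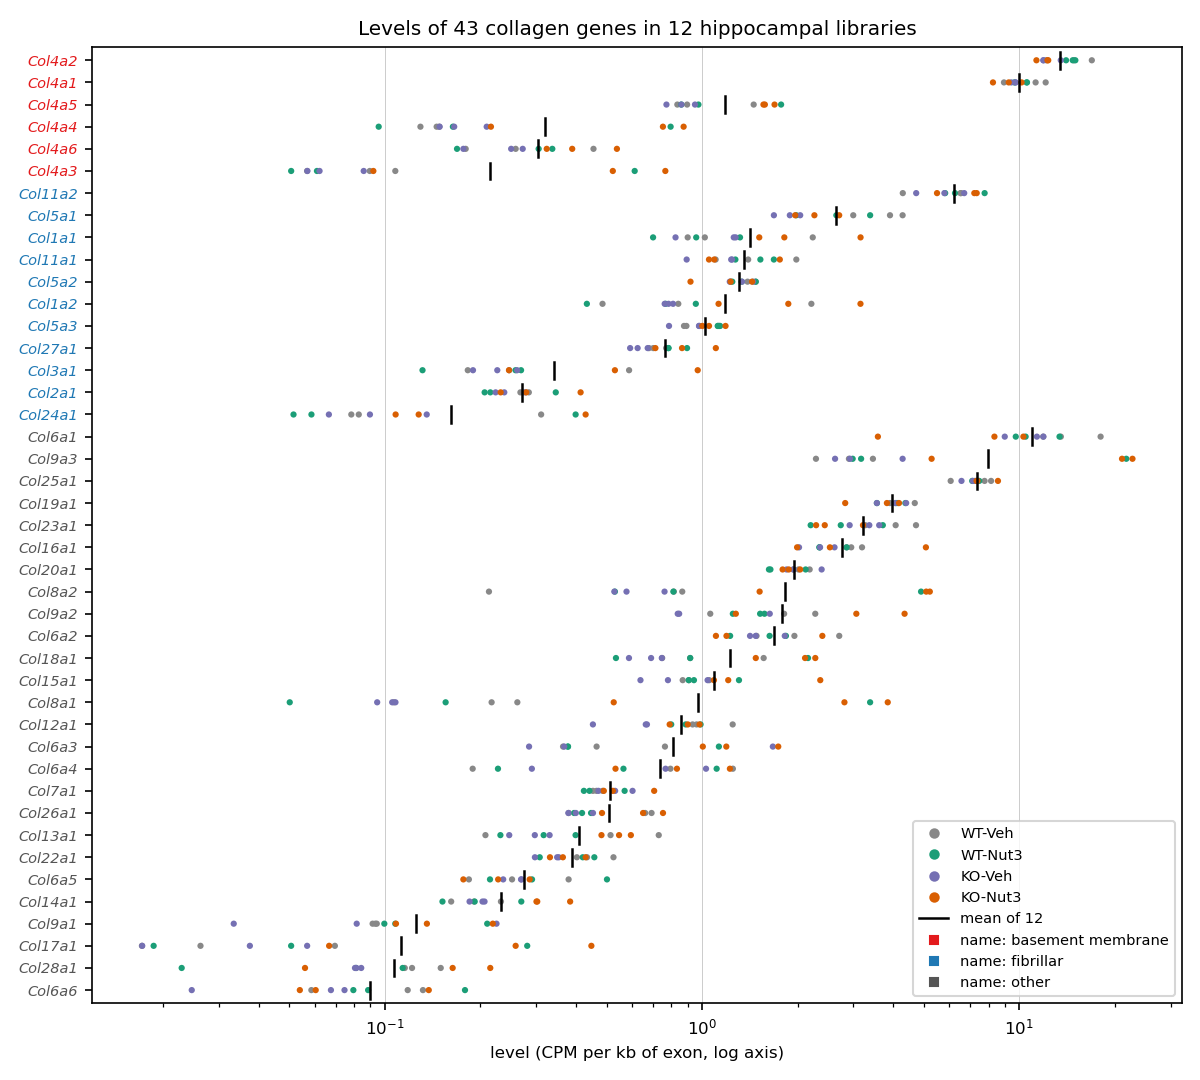
Level of each of the 43 tested collagen genes (x axis, CPM per kb of exon, log axis) in the 12 libraries (points colored by group), with the mean of 12 as a black bar. Genes are sorted by mean within basement membrane, fibrillar and other types. *Col4a2*, *Col4a1* and *Col25a1* are tight clusters of points, whereas *Col8a1*, *Col8a2*, *Col9a3* and *Col4a3* have a few libraries far to the right.

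The spread between libraries differed widely among the collagens and did not simply follow their level. The coefficient of variation over the 12 libraries was 8.84% for *Col25a1*, 10.5% for *Col4a1*, 12.7% for *Col4a2* and 31.6% for *Col6a1*, all among the 5 highest per kilobase of exon, and 11.2% for *Col20a1* and 12.05% for *Col5a2*, which had lower levels. It was 150% for *Col8a1*, 124% for *Col17a1*, 121% for *Col4a3*, 109% for *Col8a2* and 106% for *Col9a3*. By type, the median coefficient of variation was 24.1% for fibrillar, 35.1% for basement membrane and 36.4% for other collagens. KO-Nut3 RH6 held the highest value of 10 collagen genes, KO-Nut3 RH13 of 9, WT-Veh RH5 of 7 and KO-Nut3 RH8 of 5, while WT-Nut3 RH14 held the lowest value of 12 genes, KO-Nut3 RH6 of 7 and KO-Veh RH10 of 7.

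Chains that share a trimer differed in how closely their levels went together. The ratio of *Col4a1* to *Col4a2* per kb of exon stayed between 0.687 and 0.824 in all 12 libraries, a 1.2-fold spread. The ratio of *Col1a1* to *Col1a2*, the chains of type I collagen, ranged from 0.972 to 1.86, and that of *Col4a5* to *Col4a6* from 2.89 to 5.81. The ratio of the type VIII chains varied more, as *Col8a1* over *Col8a2* ranged from 0.0617 to 0.737 (median 0.297), an 11.9-fold spread. Its lowest value came from WT-Nut3 RH14, with 7 counts of *Col8a1* and 65 of *Col8a2*. *Col4a1* had at least 1112 and *Col4a2* at least 1352 counts in every library. Counting error therefore adds more to the spread of the type VIII ratio, and its share was not tested. Larger spreads were found for *Col9a3* over *Col9a2*, from 1.22 to 17.8, and for *Col6a3* over *Col6a1*, from 0.0202 to 0.485, the highest of which came from KO-Nut3 RH6. Per kb of coding sequence the median ratio of *Col1a1* to *Col1a2* was 0.647, against 1.30 per kb of exon. Which of these chains is higher thus depends on the length used, while the fold spread between libraries does not. The ratios are descriptions of levels and were not tested between groups.

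The type IV pair *Col4a1* and *Col4a2* and the type VIII pair *Col8a1* and *Col8a2* also differ in their genomic layout. *Col4a1* and *Col4a2* lie head to head on chromosome 8, *Col4a1* on the minus strand at chr8:11198423-11312826 and *Col4a2* on the plus strand at chr8:11312805-11449287, and the annotated genes share 22 bases. The other type IV pairs are also head to head, with 71 bases between *Col4a4* and *Col4a3* on chromosome 1 and 1308 bases between *Col4a6* and *Col4a5* on chromosome X. Their ratios were looser than that of *Col4a1* and *Col4a2*, with a highest value 2.83 times the lowest for *Col4a3* over *Col4a4* and 2.01 times for *Col4a5* over *Col4a6*, against 1.91 times for *Col1a1* over *Col1a2*, which lie on different chromosomes. *Col8a1* on chromosome 16 and *Col8a2* on chromosome 4 share no start region. The pair of *Col4a1* and *Col4a2* and the type VIII pair were picked after their ratios had been seen. A link between layout and ratio was not tested. The start regions of both pairs are shown as a description. They run from 250 bases before to 50 bases from the start site on (RefSeq, GRCm38.p6), read 5′ to 3′ on the strand of the gene. They lie at chr16:57754688-57754987 (minus strand) for *Col8a1*, chr4:126286544-126286843 (plus) for *Col8a2*, chr8:11312777-11313076 (minus) for *Col4a1* and chr8:11312555-11312854 (plus) for *Col4a2*. Capitals mark matches on either strand to the CCAAT box (CCAAT), the GC box (GGGCGG) and the TATA box (TATAAA).
Col8a1: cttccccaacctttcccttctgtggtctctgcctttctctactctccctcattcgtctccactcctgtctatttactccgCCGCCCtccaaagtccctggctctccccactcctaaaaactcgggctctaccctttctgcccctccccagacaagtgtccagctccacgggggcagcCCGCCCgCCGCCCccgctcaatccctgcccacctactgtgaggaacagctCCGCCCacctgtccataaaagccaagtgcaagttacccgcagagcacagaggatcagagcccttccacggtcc
Col8a2: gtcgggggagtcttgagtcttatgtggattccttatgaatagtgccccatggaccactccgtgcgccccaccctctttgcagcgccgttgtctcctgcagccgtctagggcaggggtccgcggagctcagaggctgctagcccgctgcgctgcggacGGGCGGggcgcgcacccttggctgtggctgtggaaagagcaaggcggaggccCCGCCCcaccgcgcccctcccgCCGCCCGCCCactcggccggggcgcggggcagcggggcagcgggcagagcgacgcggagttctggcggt
Col4a1: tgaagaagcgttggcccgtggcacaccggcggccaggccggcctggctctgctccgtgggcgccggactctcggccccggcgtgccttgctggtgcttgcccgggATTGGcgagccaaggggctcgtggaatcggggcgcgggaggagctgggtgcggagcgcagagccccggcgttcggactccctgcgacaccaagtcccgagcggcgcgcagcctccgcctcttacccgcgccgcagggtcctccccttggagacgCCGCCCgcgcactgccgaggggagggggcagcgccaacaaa
Col4a2: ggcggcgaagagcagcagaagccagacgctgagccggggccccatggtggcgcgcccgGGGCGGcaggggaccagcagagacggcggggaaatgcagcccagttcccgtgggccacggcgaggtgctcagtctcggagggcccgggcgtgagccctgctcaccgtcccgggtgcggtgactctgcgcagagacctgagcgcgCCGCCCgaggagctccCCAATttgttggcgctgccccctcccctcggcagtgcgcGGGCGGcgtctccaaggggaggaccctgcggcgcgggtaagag
The windows of *Col4a1* and *Col4a2* overlap by 78 bases. *Col8a1* and *Col8a2* each held 4 GC boxes, with a pair of overlapping matches in *Col8a2*, *Col4a1* held 1 CCAAT box and 1 GC box, *Col4a2* held 1 CCAAT box and 3 GC boxes, and none of the 4 windows held TATAAA. Among the 38 windows of collagen genes in the table, which cover 35 of the 44 genes, 13 held a CCAAT box, 23 a GC box and 5 a TATA box, and the shares over all 32851 windows of that length were 37.4%, 35.7% and 13.6%. Such matches describe the letters of the window only.

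Several libraries stood apart in markers of other cell types, and these values are given here because collagen genes moved with them. Markers of choroid plexus epithelium (11 genes, most abundant *Ttr*, the transthyretin gene) summed to 28.1 to 38.8 CPM in WT-Veh, 29.5 to 46.7 CPM in KO-Veh, and 42.6 and 51.7 CPM in WT-Nut3 RH1 and RH14. The sum was 4728 CPM in WT-Nut3 RH9. In KO-Nut3 it came to 3527 CPM (RH6), 381 CPM (RH8) and 5071 CPM (RH13). All 3 KO-Nut3 libraries and 1 of the 3 WT-Nut3 libraries thus lay above all others, and *Kcnj13* of this list was at 0 in WT-Veh RH2 and KO-Veh RH10. The list includes *Aqp1* and *Tmem72*, which the study had picked from these libraries. Markers of meningeal and stromal fibroblasts (12 genes without any collagen, most abundant *Pdgfra*, which oligodendrocyte precursors also express) summed to 128 to 177 CPM in 10 libraries, to 270 CPM in WT-Veh RH5 and to 312 CPM in KO-Nut3 RH8. Markers of hippocampal neurons summed to 933 to 1141 CPM in 11 libraries and to 739 CPM in KO-Nut3 RH6, which also had the highest sum of 5 thalamus markers, 113 CPM against at most 80.6 CPM elsewhere.

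The ordering of libraries by these sums recurred among the collagens, an observation made after the values had been seen. The 4 highest libraries of 6 of the 43 collagen genes (*Col4a4*, *Col4a5*, *Col8a1*, *Col8a2*, *Col9a3* and *Col14a1*) were the 4 libraries with the highest choroid plexus sums, which was so for 1.55% of all genes tested. The 2 highest libraries of 5 other collagen genes (*Col1a1*, *Col1a2*, *Col3a1*, *Col4a6* and *Col6a2*) were the 2 with the highest fibroblast sums, KO-Nut3 RH8 and WT-Veh RH5, which was so for 1.97% of all genes tested. Fibroblasts are known to express *Col1a1*, *Col1a2*, *Col3a1* and *Col6a2*, and choroid plexus to express *Col8a1*, *Col8a2* and *Col9a3*. The 4 libraries with the highest choroid plexus sums include every KO-Nut3 library, so genes higher in KO-Nut3 meet that order more easily. Fits with the marker scores as terms are given beside the genes called, and no cause was tested.

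**Figure D2:**
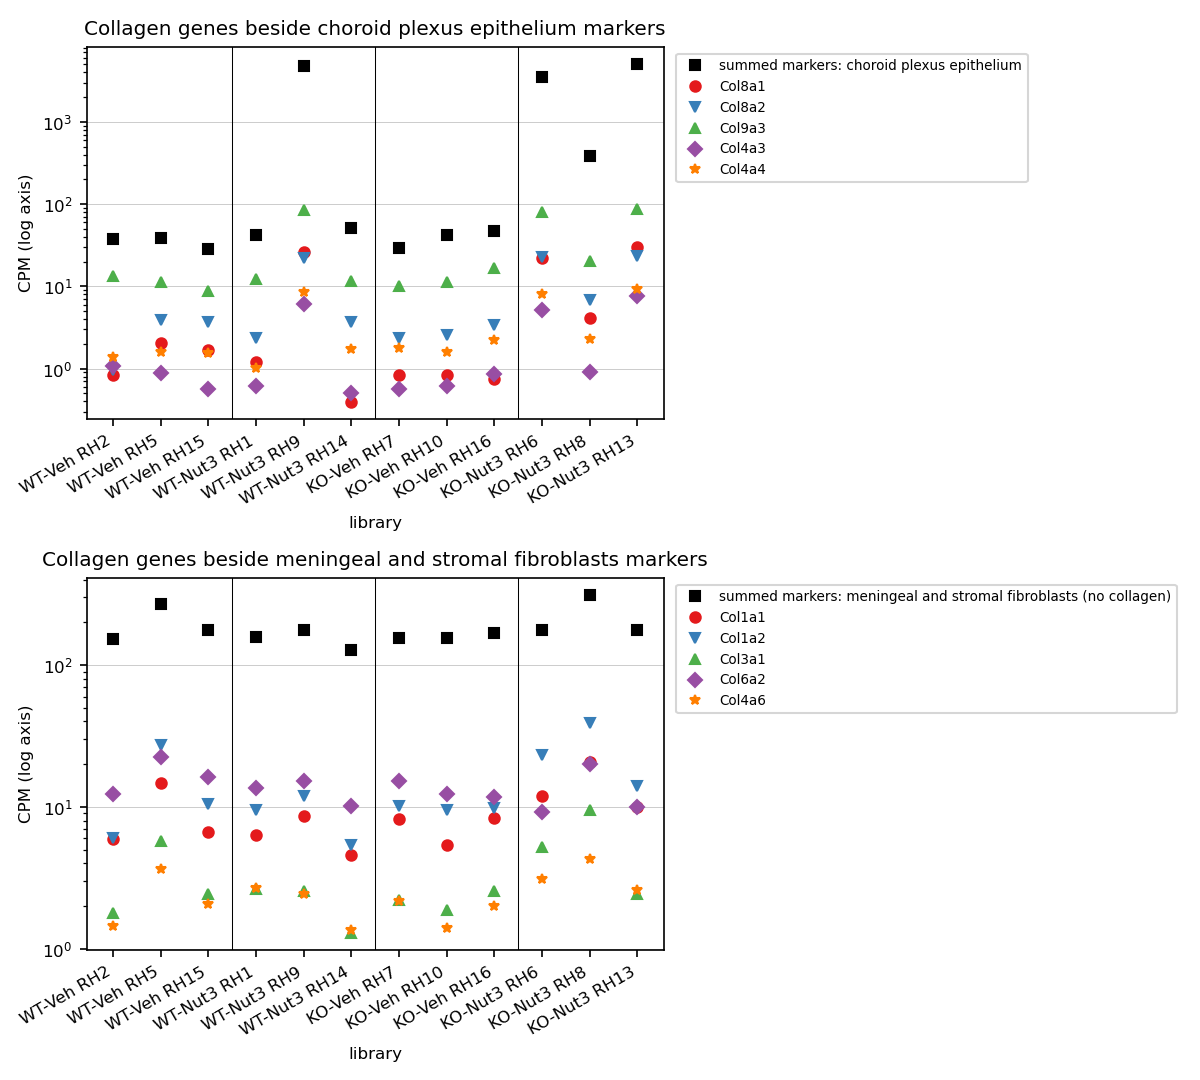
CPM (log axis) in each of the 12 libraries (x axis) of the summed choroid plexus markers with 5 collagen genes (upper panel) and of the summed fibroblast markers with 5 collagen genes (lower panel). In the upper panel WT-Nut3 RH9 and KO-Nut3 RH6 and RH13 stand highest and KO-Nut3 RH8 between them and the rest for *Col8a1*, *Col8a2* and *Col9a3*. In the lower panel WT-Veh RH5 and KO-Nut3 RH8 stand highest for each gene plotted.

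The first comparison asked whether collagen genes differed 4 months after Nutlin-3 in *Fmr1* KO mice (KO-Nut3 against KO-Veh). Of the 43 collagen genes, 4 rose and none fell, namely *Col8a1*, *Col8a2*, *Col18a1* and *Col4a5* (quasi-likelihood test of edgeR, adjusted p under 0.05). Among all 22592 genes tested, 0.199% passed and 0.195% passed as higher. The log2 fold change was above 0 for 34 of the 43 collagen genes with a median of 0.58, against 50.8% of all genes with a median of 0.0034. Every KO-Nut3 library lay above every KO-Veh library in 19 collagen genes and below in none, while 7.85% of all genes were higher and 5.44% lower in this way. At an unadjusted p under 0.05, 20 collagen genes were higher and none lower, against 5.75% and 1.85% of all genes. The plot of levels by class shows the 4 groups side by side.

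**Figure D3:**
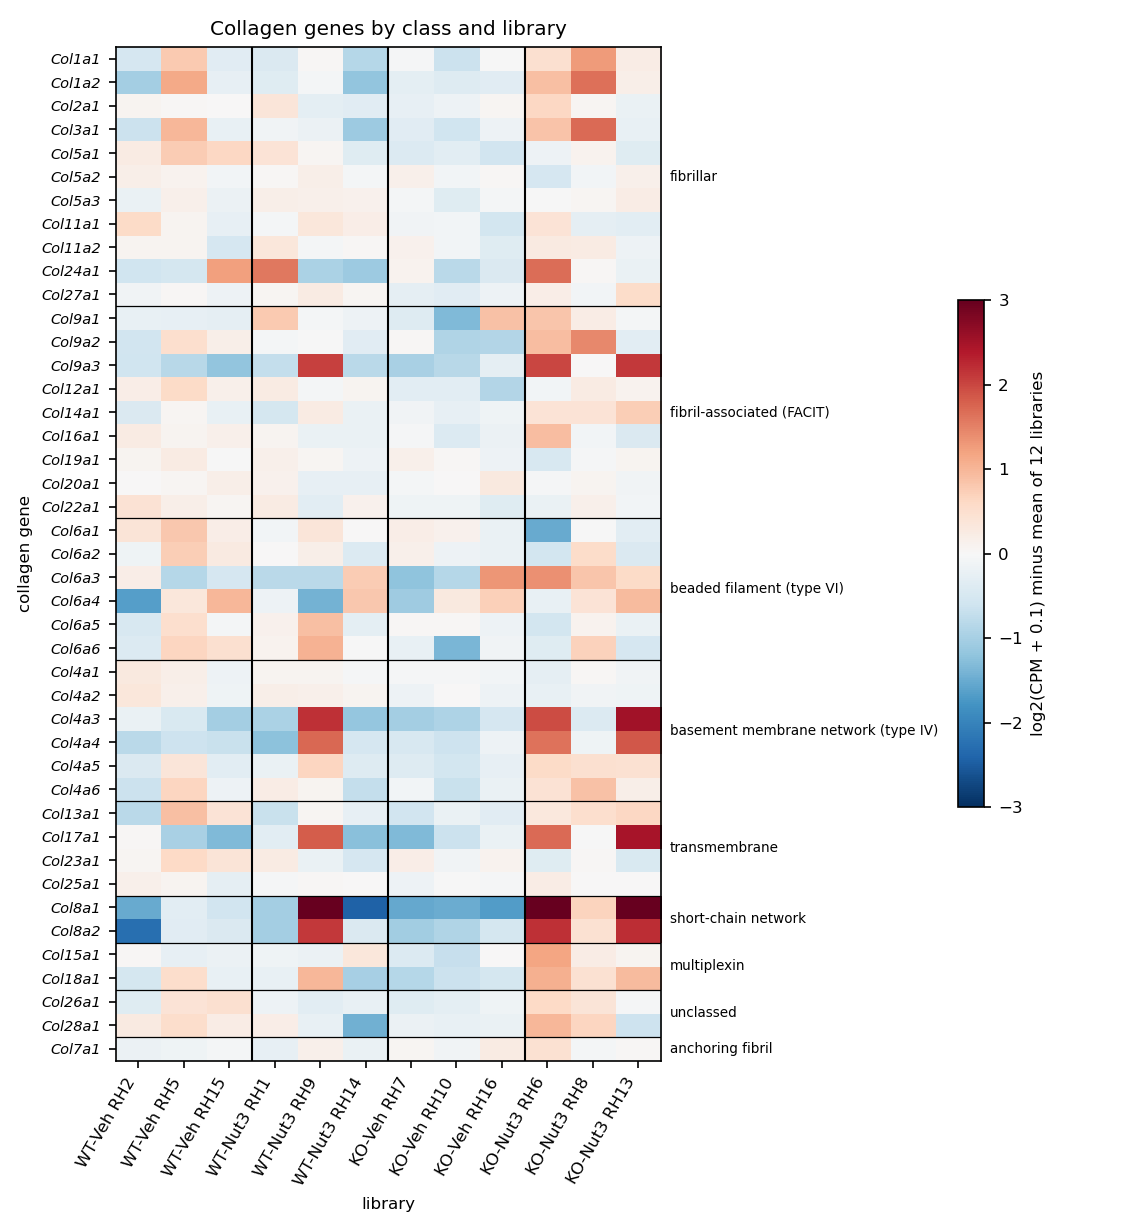
Level of the 43 collagen genes (rows, by structural class) in the 12 libraries (columns, by group), as log2(CPM + 0.1) minus the mean of the 12 libraries; colors end at a difference of 3 in either direction. The short-chain genes, *Col9a3*, *Col4a3*, *Col4a4* and *Col17a1* are dark red in WT-Nut3 RH9 and KO-Nut3 RH6 and RH13, and *Col4a1* and *Col4a2* are pale throughout.

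Both type VIII genes, which encode the short chains of the hexagonal net under endothelia and of other specialized basement membranes, were among the 4. *Col8a1* (ENSMUSG00000068196, chr16:57624258-57754737, minus strand) was at 0.826, 0.846 and 0.741 CPM in KO-Veh RH7, RH10 and RH16 and at 22.0, 4.12 and 30.1 CPM in KO-Nut3 RH6, RH8 and RH13. All treated KO mice exceeded all vehicle-treated KO mice, and KO-Nut3 RH8 was well below the other two. The log2 fold change was 4.53 ± 0.67 (SE, n = 3 against 3), or 23.1-fold (edgeR, adjusted p = 0.0377). In WT mice the same gene was at 0.836, 2.05 and 1.70 CPM in WT-Veh RH2, RH5 and RH15 and at 1.22, 26.5 and 0.393 CPM in WT-Nut3 RH1, RH9 and RH14. A single WT-Nut3 mouse, RH9, therefore had a level in the range of KO-Nut3, and the other WT libraries did not.

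*Col8a2* (ENSMUSG00000056174, chr4:126286793-126314330, plus strand) was at 2.37, 2.59 and 3.42 CPM in KO-Veh and at 22.8, 6.82 and 23.4 CPM in KO-Nut3, in the same order of libraries. Its groups did not overlap, and KO-Nut3 RH8 was again the lowest treated KO library. The log2 fold change was 2.66 ± 0.42 (SE, n = 3 against 3; edgeR, adjusted p = 0.0456). WT-Veh had 0.955, 3.89 and 3.66 CPM and WT-Nut3 2.38, 22.0 and 3.64 CPM, with RH9 as the high library once more. When the 12 libraries were fitted together with a choroid plexus marker score (mean log2 CPM of that list) as covariate, the log2 difference between KO-Nut3 and KO-Veh became −0.032 ± 0.54 for *Col8a1* and −0.078 ± 0.41 for *Col8a2* (SE). With the fibroblast score in its place the values were 4.45 ± 1.37 and 2.49 ± 0.85 (SE). The choroid plexus score was itself 5.52, 2.61 and 5.81 in KO-Nut3 RH6, RH8 and RH13. It was −0.27, −0.44 and 0.35 in KO-Veh RH7, RH10 and RH16. The choroid plexus term and the group difference therefore nearly coincide, and their parts in the values cannot be told apart.

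*Col18a1* encodes the multiplexin collagen whose cleavage releases endostatin, and it lies in vascular and epithelial basement membranes. Its level (ENSMUSG00000001435, chr10:77052178-77166548, minus strand) was 4.13, 4.85 and 5.24 CPM in KO-Veh and 15.97, 10.4 and 14.8 CPM in KO-Nut3. The groups were well separated, and the log2 fold change was 1.53 ± 0.19 (SE, n = 3 against 3; edgeR, adjusted p = 0.0130). WT-Veh RH5, at 10.98 CPM, and WT-Nut3 RH9, at 15.2 CPM, lay in the KO-Nut3 range. *Col4a5*, a chain of the type IV network mutated in Alport syndrome (ENSMUSG00000031274, chrX:141475385-141689234, plus strand), was at 5.78, 5.19 and 6.38 CPM in KO-Veh and at 11.4, 10.6 and 10.5 CPM in KO-Nut3. The spread within both groups was small, and the log2 fold change was 0.90 ± 0.14 (SE, n = 3 against 3; edgeR, adjusted p = 0.0414). WT-Veh RH5 with 9.77 CPM and WT-Nut3 RH9 with 11.9 CPM were the highest WT libraries of *Col4a5*. With the choroid plexus score as covariate the log2 fold changes were 0.31 ± 0.36 for *Col18a1* and 0.26 ± 0.28 for *Col4a5*, and with the fibroblast score 1.15 ± 0.43 and 0.54 ± 0.26 (SE). In such bulk tissue, more cells of a type and more RNA per cell cannot be told apart.

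**Figure D4:**
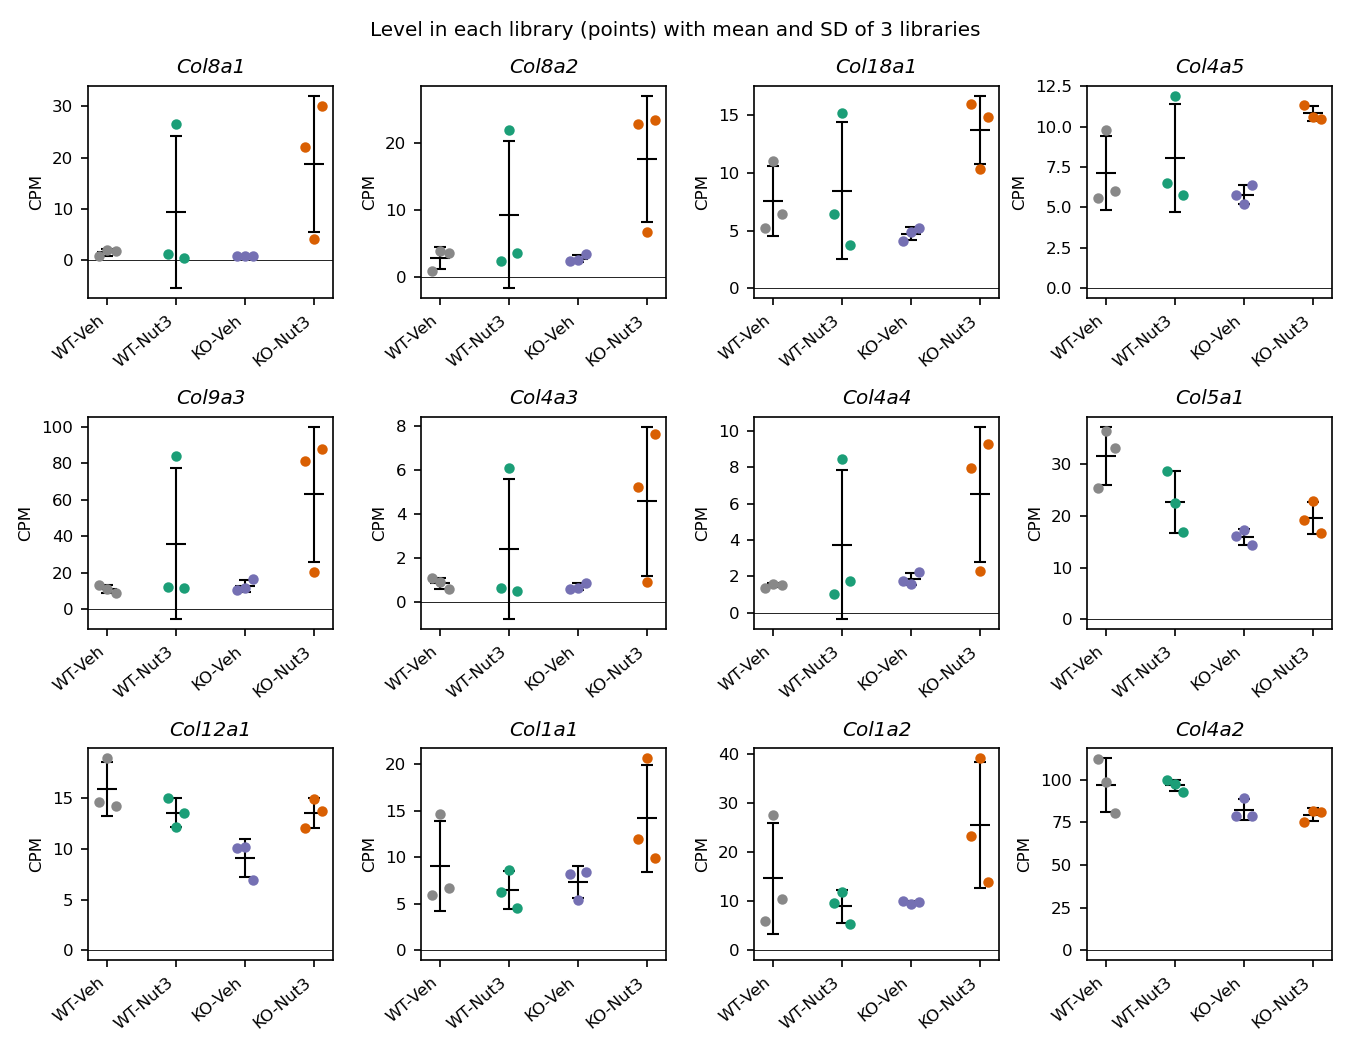
CPM of 12 named collagen genes in the 3 libraries of each group (points), with the mean (long bar) and SD (whiskers). KO-Nut3 lies above KO-Veh in *Col8a1*, *Col8a2*, *Col18a1*, *Col4a5*, *Col9a3*, *Col4a3*, *Col4a4*, *Col12a1*, *Col1a1* and *Col1a2*, 1 WT-Nut3 library (RH9) shares the high level in several of them, and *Col4a2* has similar levels in KO-Veh and KO-Nut3.

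Further genes had non-overlapping groups without passing the test. *Col9a3*, a chain of the fibril-associated type IX collagen, was at 10.1, 11.3 and 16.5 CPM in KO-Veh and at 81.2, 20.4 and 87.6 CPM in KO-Nut3, and its log2 fold change was 2.32 ± 0.45 (SE; edgeR, adjusted p = 0.105). WT-Nut3 RH9 had 83.8 CPM of it, while the other WT libraries had 8.81 to 13.3 CPM. *Col4a3*, which pairs with *Col4a4* and *Col4a5* in the type IV network of specialized basement membranes, was at 0.568, 0.620 and 0.855 CPM in KO-Veh and at 5.21, 0.917 and 7.63 CPM in KO-Nut3 (log2 fold change 2.74 ± 0.64, adjusted p = 0.186). *Col4a4* had 1.76, 1.58 and 2.22 CPM in KO-Veh and 7.99, 2.29 and 9.28 CPM in KO-Nut3 (1.81 ± 0.44, adjusted p = 0.212). In both, KO-Nut3 RH8 was just above the highest KO-Veh library. *Col17a1*, the transmembrane collagen of hemidesmosomes, was near the limit of counting with 0.103, 0.226 and 0.342 CPM in KO-Veh. In these libraries 3 counts correspond to 0.155 to 0.171 CPM. *Col17a1* reached 1.55, 0.401 and 2.69 CPM in KO-Nut3 (2.77 ± 0.70, edgeR adjusted p = 0.237).

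The classes were counted separately and were not tested against each other. Over all genes tested, 0.195% passed as higher, 50.8% had a log2 fold change above 0 and 7.85% were higher without overlap. Of the 6 basement membrane genes, 1 rose, 4 had non-overlapping groups, 4 had a log2 fold change above 0 and the median was 0.87. The abundant chains *Col4a1* and *Col4a2* were not among those 4, with log2 fold changes of −0.064 ± 0.080 and −0.058 ± 0.071 (SE). *Col4a1* was at 72.6, 72.7 and 70.4 CPM in KO-Veh and at 61.7, 75.9 and 69.1 CPM in KO-Nut3. Of the 11 fibrillar genes none passed, 10 had a log2 fold change above 0, 4 had non-overlapping groups and the median was 0.32. Of the 26 other genes, 3 rose, 20 had a log2 fold change above 0, 11 had non-overlapping groups and the median was 0.58. Within these, 7 of the 9 fibril-associated genes but 3 of the 6 type VI genes had a value above 0.

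Type I collagen had some of the largest values of the fibrillar group, whose median was 0.32. *Col1a2* was at 10.1, 9.47 and 9.74 CPM in KO-Veh and at 23.2, 39.2 and 14.004 CPM in KO-Nut3, with a log2 fold change of 1.38 ± 0.30 (SE; edgeR, adjusted p = 0.149). *Col1a1* was at 8.26, 5.41 and 8.37 CPM in KO-Veh and at 11.9, 20.7 and 9.94 CPM in KO-Nut3 (0.95 ± 0.27, adjusted p = 0.342). KO-Nut3 RH8 was the highest library in both, unlike in the type VIII genes, where it was the lowest of its group. With the choroid plexus score as covariate the log2 fold change of *Col1a2* was 1.40 ± 0.63, and with the fibroblast score it was 0.12 ± 0.16 (SE).

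Summed over all 44 genes, collagen CPM was 585, 578 and 578 in KO-Veh and 775, 721 and 747 in KO-Nut3, a mean of 580.0 ± 4.0 against 747.5 ± 27.0 (SD, n = 3). Without *Col4a1*, *Col4a2* and *Col25a1* the means were 335.2 ± 13.2 and 498.8 ± 29.98 CPM (SD). The sum was 684, 767 and 599 CPM in WT-Veh and 650, 789 and 596 CPM in WT-Nut3. The KO-Veh libraries were thus the lowest 3 of the 12 and the tightest group, and WT-Nut3 RH9 had the highest sum. In KO-Nut3 against KO-Veh, the choroid plexus markers were higher in 11 of 11 genes with 5 passing the test (median log2 fold change 5.11), the fibroblast markers had values above 0 in 11 of 12 genes with none passing (1.17), the endothelial markers in 6 of 7 with none passing (0.25) and the mural cell markers in 7 of 8 with none passing (0.38). All 4 ependymal (median 0.502), 5 oligodendrocyte (0.21), 5 thalamus (0.35) and 4 blood markers (0.36) had values above 0 and all 6 hippocampal neuron markers values below 0 (−0.15), none of which passed.

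The calls depended on the settings and on single libraries. The count of 4 became 10 with DESeq2, 2 with the filterByExpr filter and 14 with every gene of at least 1 count, where 1.08%, 0.201% and 1.51% of all genes passed. It was 1 (*Col18a1*) with a block for animal numbers below RH9 as a term, where 0.0885% of all genes passed. In one edgeR fit of all 12 libraries, with or without either marker score, 0 collagen genes and 0% of all genes passed. The count was 0 without any one of KO-Veh RH7, RH10 and RH16, where 0.0266%, 0.0266% and 0.031% of all genes passed. It was 3 without KO-Nut3 RH6 (0.288% of all genes), 8 without KO-Nut3 RH8 (1.18%) and 2 without KO-Nut3 RH13 (0.181%), so that the rise to 8 came with a rise over all genes.

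**Figure D5:**
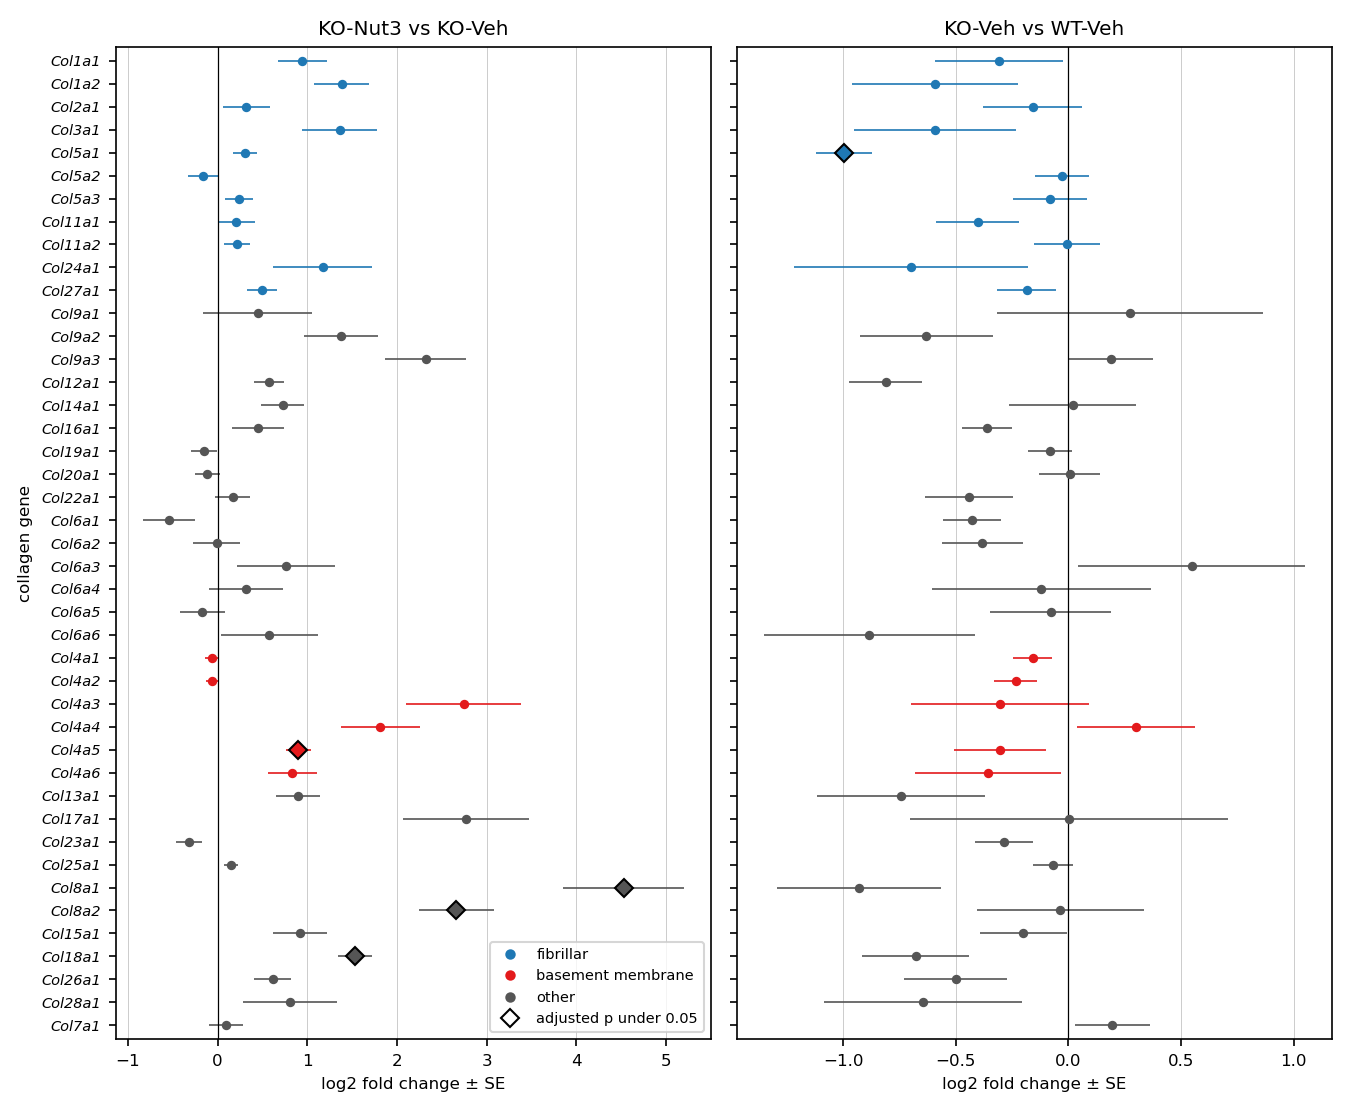
Log2 fold change with SE (x axis) of each of the 43 collagen genes in KO-Nut3 against KO-Veh (left) and in KO-Veh against WT-Veh (right), which share the KO-Veh libraries; diamonds mark an adjusted p under 0.05. On the left most points lie right of 0 and 4 are diamonds, and on the right most lie left of 0 and *Col5a1* is a diamond. The x axes differ in range.

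The second comparison asked how collagen genes differed between vehicle-treated *Fmr1* KO and WT mice (KO-Veh against WT-Veh). *Col5a1*, whose chain nucleates type I fibrils, was the 1 collagen gene that passed, and it fell in KO-Veh (ENSMUSG00000026837, chr2:27886425-28039514, plus strand). Among all genes tested 0.0177% passed, 0.0133% as lower. Its level was 25.4, 36.4 and 33.2 CPM in WT-Veh and 16.1, 17.3 and 14.3 CPM in KO-Veh. The groups were well separated, and the log2 fold change was −0.997 ± 0.13 (SE, n = 3 against 3; edgeR, adjusted p = 0.0146). *Col5a1* was at 28.8, 22.5 and 16.8 CPM in WT-Nut3 and at 19.2, 23.0 and 16.7 CPM in KO-Nut3, both between the vehicle groups in their means. Its partner *Col5a2* had a log2 fold change of −0.029 ± 0.12, so that the ratio of the chains per kb was 2.76 ± 0.638 in WT-Veh and 1.41 ± 0.223 in KO-Veh (SD, n = 3). The counts ignored strand, and *Col5a1* shares 99 and 113 exonic bases with 2 transcripts on the other strand. Other named genes share a larger part of their exons with another gene. Among them are *Itga10* (33.5%, same strand), *Colgalt1* (11.4%), *Col9a3* (6.07%), *Col4a3* (5.65%) and *Loxl2* (5.57%), the last 4 with genes on the other strand.

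Most collagen genes had lower values in KO-Veh than in WT-Veh without passing. The log2 fold change was below 0 for 35 of the 43 genes with a median of −0.29, whereas 48.9% of all genes were above 0 with a median of −0.0043. KO-Veh lay below WT-Veh without overlap in 7 collagen genes and above in 1, against 6.46% and 5.9% of all genes. At an unadjusted p under 0.05, 11 were lower and none higher, against 4.12% and 3.08% of all genes. *Col12a1*, a fibril-associated collagen, was at 14.6, 19.0 and 14.2 CPM in WT-Veh and at 10.1, 10.2 and 6.89 CPM in KO-Veh (log2 fold change −0.81 ± 0.16, edgeR adjusted p = 0.313). *Col18a1* differed by −0.68 ± 0.24 (adjusted p = 0.621), *Col28a1* by −0.65 ± 0.44 (adjusted p = 0.794) and *Col22a1* by −0.44 ± 0.19 (adjusted p = 0.680) on the log2 scale, each without overlap. *Col4a4* was the gene with the opposite order, by 0.30 ± 0.26 (adjusted p = 0.847).

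By class, all 11 fibrillar genes had a log2 fold change below 0 in KO-Veh against WT-Veh, with a median of −0.31. So had 5 of the 6 basement membrane genes (median −0.27) and 19 of the 26 others (median −0.24). Among the fibrillar genes 1 passed and none of the remaining collagens did, while 0.0133% of all genes passed as lower. Beside these, 11 of 12 fibroblast markers and 8 of 8 mural cell markers were lower in KO-Veh with medians of −0.65 and −0.31, as were 6 of 7 endothelial markers (median −0.24). All 4 ependymal markers (median 0.71), all 5 oligodendrocyte markers (0.15) and 8 of 11 choroid plexus markers (0.23) were higher in KO-Veh, and none of the markers of these 6 lists passed. Of the 6 hippocampal neuron markers 4 were lower (median −0.097) and 1 passed, *Wfs1*, a marker of CA1 pyramidal cells (−0.44 ± 0.06, edgeR adjusted p = 0.0478). With the fibroblast score as a term *Col5a1* differed by −0.81 ± 0.14 and with the choroid plexus score by −0.99 ± 0.18 (SE). *Col5a1* lost its edgeR call without WT-Veh RH5, KO-Veh RH7, RH10 or RH16, where no collagen gene and 0.0133%, 0.00885%, 0.00885% and 0.0133% of all genes passed, and in each fit of all 12 libraries, where 0.00443% of all genes passed. DESeq2 called 2 collagen genes and 0.12% of all genes, and 5 collagen genes and 0.757% of all genes were called when every gene with any count was tested.

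Because KO-Veh stands in both comparisons, their opposite directions are not independent, and the values are set side by side here. *Col18a1* was 0.68 lower in KO-Veh than in WT-Veh and, against KO-Veh, 1.53 higher in KO-Nut3 on the log2 scale. *Col12a1* was 0.81 lower and then 0.58 higher, while *Col5a1* was 0.997 lower and then 0.30 higher, the last with adjusted p = 0.655 (edgeR). *Col4a2* was 0.23 lower in KO-Veh than in WT-Veh and, against KO-Veh, 0.058 lower in KO-Nut3, with no call in either.

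A direct comparison of KO-Nut3 with WT-Veh, which does not involve KO-Veh, gave no collagen gene past the threshold, and 0.00443% of all genes passed. At an unadjusted p under 0.05, 11 collagen genes were higher and 4 lower, against 5.61% and 3.55% of all genes, and DESeq2 called 8 (0.965% of all genes). KO-Nut3 lay above WT-Veh without overlap in 10 collagen genes and below in 3, against 7.92% and 7.09% of all genes, and 29 of the 43 genes had a log2 fold change above 0, with a median of 0.21, against 52.4% of all genes. The largest values with separate groups were those of *Col8a1* (3.60 ± 0.65, edgeR adjusted p = 0.134), *Col8a2* (2.63 ± 0.53, adjusted p = 0.179), *Col9a3* (2.51 ± 0.46, adjusted p = 0.135), *Col4a4* (2.12 ± 0.45, adjusted p = 0.185) and *Col6a3* (1.31 ± 0.28, adjusted p = 0.185). *Col6a3*, the long chain of type VI collagen, was at 9.14, 4.36 and 5.56 CPM in WT-Veh, 3.41, 4.40 and 19.996 CPM in KO-Veh and 20.8, 14.3 and 12.03 CPM in KO-Nut3. The KO-Veh libraries spanned nearly the whole range of this gene.

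Lower in KO-Nut3 than in WT-Veh without overlap were *Col6a1* (−0.97 ± 0.31, edgeR adjusted p = 0.387), *Col5a1* (−0.69 ± 0.15, adjusted p = 0.211) and *Col23a1*, a transmembrane collagen (−0.60 ± 0.17, adjusted p = 0.298). *Col6a1* was at 59.2, 79.1 and 52.1 CPM in WT-Veh and at 15.7, 45.1 and 36.6 CPM in KO-Nut3, and the low value came from RH6. Without KO-Nut3 RH8, 6 collagen genes and 0.872% of all genes passed in this comparison.

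In WT mice (WT-Nut3 against WT-Veh) no gene of any kind passed the edgeR test, and DESeq2 called none of the 22592 genes either. At an unadjusted p under 0.05, 3 collagen genes were higher and 4 lower, against 1.84% and 1.34% of all genes. The log2 fold change was above 0 for 21 of the 43 collagen genes and for 50.1% of all genes. WT-Nut3 lay above WT-Veh without overlap in 2 collagen genes and below in 2, against 3.6% and 3.92% of all genes. *Col9a1* (0.58 ± 0.43) and *Col27a1* (0.20 ± 0.13) were the higher pair, and *Col28a1* (−0.80 ± 0.52) and *Col16a1* (−0.25 ± 0.11) the lower one. The largest log2 fold changes were 2.61 ± 1.10 for *Col8a1*, 1.71 ± 0.73 for *Col8a2* and 1.70 ± 0.64 for *Col9a3* (SE, edgeR adjusted p = 0.998 each), and RH9 was the single high WT-Nut3 library in each. In *Col8a1* the other treated WT mice, RH1 and RH14, lay below the WT-Veh median.

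Between KO-Nut3 and WT-Nut3, the treated groups, no collagen gene passed the threshold (edgeR, adjusted p at least 0.928), and 0.00443% of all genes passed. At an unadjusted p under 0.05, 8 collagen genes were higher and 1 lower, against 2.8% and 2.08% of all genes, and DESeq2 called none of the 43 (0.031% of all genes). The log2 fold change was above 0 for 29 collagen genes and for 51.1% of all genes. The groups did not overlap in 5 genes that were higher in KO-Nut3 and in 1 that was lower, against 5.3% and 5.35% of all genes. The higher genes were *Col1a2* (1.503 ± 0.38), *Col1a1* (1.12 ± 0.30), *Col13a1* (0.77 ± 0.26), *Col14a1* (0.68 ± 0.28) and *Col26a1* (0.58 ± 0.20), and the lower gene was *Col4a2* (−0.29 ± 0.06, SE). *Col4a2* was at 99.5, 97.6 and 93.0 CPM in WT-Nut3 and at 74.98, 81.7 and 81.2 CPM in KO-Nut3. The type VIII genes overlapped in this comparison, since WT-Nut3 RH9 reached the KO-Nut3 level.

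Whether the treatment effects differed between KO and WT mice was tested with an interaction term on the 12 libraries. No collagen gene passed (edgeR, adjusted p at least 0.994), nor did any other gene. Of the 43 collagen genes, 37 had an interaction above 0, with a median of 0.57, as had 51.3% of all genes. At an unadjusted p under 0.05, 9 collagen genes were above 0 and none below, against 2.9% and 1.27% of all genes. Thus *Col8a1*, which passed in KO mice and not in WT mice, had an interaction of 1.93 ± 1.65 on the log2 scale (unadjusted p = 0.263), and a difference of its response between the genotypes was not shown.

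Genes that process, cross-link or bind collagen were followed as a list of 46, of which 45 were tested. In KO-Nut3 against KO-Veh, 1 of them rose and none fell, against 0.195% and 0.00443% of all genes. Values above 0 on the log2 scale were found for 33 of the 45 and for 50.8% of all genes, with medians of 0.12 and 0.0034. *Pcolce*, which enhances the removal of the propeptide from fibrillar procollagens, was at 3.25, 3.04 and 5.18 CPM in KO-Veh and at 18.2, 11.9 and 15.7 CPM in KO-Nut3. The groups were far apart, and the log2 fold change was 1.99 ± 0.23 (SE, n = 3 against 3; edgeR, adjusted p = 0.0122). WT-Nut3 RH9 had 18.9 CPM, WT-Veh RH5 8.51 CPM and the other WT libraries 2.24 to 4.26 CPM. *Pcolce* lost its call without KO-Veh RH7 (edgeR, adjusted p = 0.112) or RH10 (adjusted p = 0.145) and in each fit of all 12 libraries. Its value was 0.20 when the choroid plexus score entered as covariate and 1.41 with the fibroblast score (edgeR adjusted p = 0.9996 and 0.708). Without KO-Nut3 RH6, 2 genes of the list and 0.288% of all genes passed, and without KO-Nut3 RH8, 4 genes and 1.18%.

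Groups of KO-Nut3 and KO-Veh did not overlap in 13 of the 45 genes that were higher, against 7.85% of all genes, and in 1 that was lower, against 5.44% of all genes. The lower gene was *Pxdn*, the peroxidase that cross-links type IV collagen (−0.27 ± 0.09, edgeR adjusted p = 0.474). Beside *Pcolce*, the largest values among the genes without overlap were those of *Loxl2*, a lysyl oxidase (2.13 ± 0.47, edgeR adjusted p = 0.150), *Pcolce2* (1.27 ± 0.30, adjusted p = 0.200), *Mrc2*, an endocytic collagen receptor (1.25 ± 0.27, adjusted p = 0.148), and *Crtap*, a partner of prolyl 3-hydroxylase (0.99 ± 0.17, adjusted p = 0.0563). *Crtap* was at 5.21, 3.89 and 3.82 CPM in KO-Veh and at 8.82, 8.25 and 8.68 CPM in KO-Nut3. All 10 collagen receptor genes had values above 0, 4 of them without overlap, as had 5 of 6 chaperone and secretion genes, 5 of 6 cross-linking genes, 10 of 15 hydroxylases and their partners, and 3 of 8 genes of propeptide processing. As for the collagens, the 4 highest libraries of 6 list genes (*Crtap*, *P4ha3*, *P4hb*, *Pcolce*, *Pcolce2* and *Serpinh1*) were the 4 with the highest choroid plexus sums, which was so for 1.55% of all genes.

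In KO-Veh against WT-Veh none of the 45 genes passed, against 0.0177% of all genes. Of the 45, 3 were higher and 4 lower at an unadjusted p under 0.05, against 3.08% and 4.12% of all genes. DESeq2 called 1 of the 45 and 0.12% of all genes. KO-Veh was higher without overlap in 3 genes and lower in 4, shares near those of all genes (5.9% and 6.46%), so these counts do not set the list apart. The largest value among the higher genes without overlap was that of *P4ha1*, the catalytic chain of prolyl 4-hydroxylase (0.43 ± 0.08, edgeR adjusted p = 0.303), followed by *Itga10* (0.33 ± 0.18) and *Mia2* (0.15 ± 0.06). The lower genes without overlap were *Itga11* (−0.54 ± 0.17), *Itga1* (−0.20 ± 0.12), *Loxl1* (−0.20 ± 0.18) and *Colgalt1* (−0.14 ± 0.06). *P4ha1* was at 49.0, 52.9 and 57.0 CPM in WT-Veh and at 63.4, 73.5 and 77.4 CPM in KO-Veh. Of the 45 genes, 18 had a value above 0 and 27 below, with a median of −0.02.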

How the data were processed

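Poly(A) RNA-seq libraries of 12 hippocampi, 3 per group, were analysed, and groups were taken from the sample labels. According to the methods and the processing notes, the authors mapped the reads to mm10 with STAR, and they deposited raw read counts per gene, not normalized. The column that ignores strand was used. Reads outside single genes made up 21.2% to 22.6% of each library and stayed out of library sizes. A table of the series with 12 columns of counts was not used. Genes were named and typed with GENCODE M21, which lists 55154 of the 55421 identifiers. Counts were TMM-normalized with edgeR 4.0.16 under R 4.3.3. Genes whose total exceeded 20 counts (22592) were tested on the 6 libraries of each pair of groups with the quasi-likelihood F test, two-sided, with Benjamini-Hochberg adjustment over all genes and a threshold of 0.05. The interaction used 12 libraries. SE is the size of the log2 fold change divided by the square root of F. CPM uses TMM factors of all 12 libraries. Marker scores are mean log2 CPM with a prior count of 1, and a floor of 3 counts covers counting error only. Collagen genes passing the threshold in any comparison were named, together with the 3 highest per type, up to 5 per direction and comparison with the largest change among those whose groups do not overlap, their trimer partners, and pathway genes by a like rule; other genes were named after their values were seen. The members and lists were chosen with earlier results of these data known. Alternatives were DESeq2 1.42.0, its size factors, other filters, all 12 libraries in one fit, an animal number block, marker scores as terms, and each library left out. The fits were tested on simulated counts.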

Additional observations from a re-analysis of the deposited data

Results flagged for a closer look

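For 8 collagen genes every KO-Nut3 library lay above the mean of KO-Veh and every WT-Nut3 library below the mean of WT-Veh. This pattern was met by 8 of the 43 collagen genes and by 2.93% of all genes tested, and the reverse pattern by 2.38% of all genes and by none of the collagens. The difference was tested as the interaction of genotype and treatment in edgeR, and none of the 8 passed after adjustment (adjusted p = 0.994 each). The interactions on the log2 scale (± SE) were 2.10 ± 0.65 for *Col1a2*, 1.99 ± 0.67 for *Col3a1* and 1.43 ± 0.50 for *Col1a1* among the interstitial fibrillar chains. *Col5a1* had 0.78 ± 0.25. Among the fibril-associated chains the values were 1.63 ± 0.55 for *Col9a2* and 0.81 ± 0.23 for *Col12a1*. The transmembrane *Col13a1* had 1.52 ± 0.50 and *Col26a1* had 1.08 ± 0.32. The 8 genes were picked by these same values, so the sizes are a description and no independent evidence of a difference. *Col1a1*, *Col1a2* and *Col3a1* are also among the genes whose 2 highest libraries are those with the highest fibroblast marker sums, 1 of them in KO-Nut3 (RH8) and 1 in WT-Veh (RH5), and the part of those 2 libraries in the interaction was not tested for single genes.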

How the results depend on the processing

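Counts of collagen genes past the threshold moved with the test. DESeq2 called 10 in KO-Nut3 against KO-Veh (4 with edgeR), 2 in KO-Veh against WT-Veh (1) and 8 in KO-Nut3 against WT-Veh (0), while its calls over all 22592 genes numbered 244 (45 with edgeR), 27 (4) and 218 (1). Testing every gene with at least 1 count gave 14, 5, 9 in WT-Nut3 against WT-Veh, 11 in KO-Nut3 against WT-Veh, 2 in KO-Nut3 against WT-Nut3 and 10 in the interaction, and the cause was not tested; over all 35930 genes it called 544, 272, 249, 416, 38 and 291, where the reported fits called 45, 4, 0, 1, 1 and 0 of 22592. The filterByExpr filter left 2 and the animal number block 1 in KO-Nut3 against KO-Veh (34 and 20 over all genes). One fit of all 12 libraries, alone or with either marker score, left 0 in KO-Nut3 against KO-Veh, where no gene of any kind passed, and 0 in KO-Veh against WT-Veh, where 1 of the 22592 genes passed. Leaving out 1 library gave 0 to 8 in KO-Nut3 against KO-Veh, 0 to 1 in KO-Veh against WT-Veh, 0 to 6 in KO-Nut3 against WT-Veh and 0 to 0 in the other comparisons. Pathway genes in KO-Nut3 against KO-Veh numbered 6 with DESeq2, 8 with at least 1 count, 0 in each fit of 12 libraries and 0 to 4 without 1 library (1 in the reported fit). In KO-Veh against WT-Veh they numbered 1 with DESeq2 and 2 with at least 1 count, in KO-Nut3 against WT-Veh 3 with either and 0 to 1 without 1 library, in KO-Nut3 against WT-Nut3 1 with either, and in the interaction 4 with at least 1 count.

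Among the values checked, directions turned only with marker scores, and for *Col8a2*. The choroid plexus score was higher in every KO-Nut3 library than in any vehicle library. Its term therefore overlaps with the contrasts of KO-Nut3 against the vehicle groups. With the choroid plexus score the value in KO-Nut3 against KO-Veh (log2) was −0.22 for *Col17a1*, −0.80 for *Col4a3*, −0.032 for *Col8a1*, −0.078 for *Col8a2*, −0.44 for *Col9a3* and −0.091 for *Pcolce2*, and against WT-Veh it was −0.69 for *Col4a4*, −1.28 for *Col8a1*, −0.31 for *Col8a2* and −0.47 for *Col9a3*. With the fibroblast score *Col5a1* was −0.039 in KO-Nut3 against KO-Veh and *Col8a2* was 0.11 in KO-Veh against WT-Veh, where leaving out 1 library gave −0.43 to 0.25 (−0.04 in the reported fit). Without 1 library the called values of KO-Nut3 against KO-Veh kept their direction, from 4.01 to 5.0014 for *Col8a1*, 2.41 to 3.04 for *Col8a2*, 1.41 to 1.69 for *Col18a1*, 0.83 to 0.98 for *Col4a5* and 1.85 to 2.27 for *Pcolce*, as did *Col5a1* in KO-Veh against WT-Veh from −1.13 to −0.89. The other values checked kept their direction under the alternatives run. The check covered the called genes, and the named genes in the comparisons by which they were named. Further values were not checked in this way, such as those of *Col4a4* and *Col12a1* in KO-Nut3 against KO-Veh. No paired analysis was made, because each library carries its own RH number and the labels used give no litter. The rarest members had only a few reads per library, which limits the precision of their values, and the size of difference that could be detected at such levels was not tested.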

Other observations

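*Col10a1*, which was not tested, had 19 counts in total, at most 0.355 CPM in any library (WT-Nut3 RH1), and was at 0 in all 3 KO-Veh libraries, in WT-Veh RH15 and in KO-Nut3 RH13. *Sparc*, a collagen-binding glycoprotein of the pathway list, was at 465 CPM in KO-Nut3 RH6 and at 206 to 251 CPM in the other 11 libraries. The same library had 32.7 CPM of the thalamus marker *Tcf7l2*, against at most 7.33 CPM elsewhere. It had the lowest *Col6a1* level of the 12 (15.7 CPM) and the highest *Col6a3* level (20.8 CPM).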
